A study of Mus musculus with 8 samples.

Results

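The glucocorticoid receptor (GR, Nr3c1) is a nuclear receptor that enters the nucleus when it binds corticosterone, the main glucocorticoid of mice, and binds DNA at glucocorticoid response elements (GREs) or beside other factors. In the liver it is known for its part in gluconeogenesis, lipid handling and the daily rhythm of metabolism. FOXO1 is a forkhead factor that insulin signalling keeps out of the nucleus and that is active in fasted liver. Sites where GR was found in livers of calorie-restricted mice, and by the same criterion neither in control nor in corticosterone-treated mice, are described here through their genes, gene position, sequence and spacing.

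GR was mapped by ChIP-seq in livers of C57BL/6J mice, male by the study's methods and collected at lights-off, with 2 libraries in each of 3 groups. The ctrl. mice were under night-restricted feeding, the cal. res. mice under caloric restriction, and the CORT mice received corticosterone on top of night-restricted feeding, by daily injection according to the methods. The labels name no allele besides the strain and give no age. FOXO1 was mapped in cal. res. livers alone, as 1 peak list called on 2 merged libraries, so it has no control group and no replicate list. Peak lists hold no expression levels, and the labelled tissue was therefore not checked against liver markers. The lists differed in length. Distinct regions numbered 36234 in ctrl. replicate 1 but 12458 in replicate 2, whereas cal. res. had 22707 and 18747, and CORT 29473 and 39136.

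Overlapping regions of the 6 GR lists gave 51431 merged sites, and a site counted for a group if each of the group's libraries had a region in it. Of these, 1229 counted for cal. res. and for no other group, which is 2.39% of all sites. These cal. res.-only sites were chosen by the presence or absence of regions in the 6 lists, so presence and strength of the GR signal are given as descriptions. Gene position, FOXO1, sequence and spacing were not used by the choice. They were compared with the 4694 sites held by cal. res. and CORT but not by ctrl. and with the 8097 sites held by all groups. The 334 sites held by cal. res. and ctrl. but not by CORT, a small class nearer in GR strength, were added to the comparison after the results had been seen. These classes share the cal. res. libraries. Intervals are 95% intervals over sites and cover counting error only, since sites of the same libraries are not replicates.

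Few of the cal. res.-only sites were free of GR regions elsewhere. At 61 sites, 0.119% of all merged sites, no library of ctrl. or CORT had a region, and these are called strict sites below. A region was found in exactly 1 other library at 260 cal. res.-only sites and in 2 at 908. Ctrl. replicate 1 had a region at 990 of them, ctrl. replicate 2 at 16, CORT replicate 1 at 176 and CORT replicate 2 at 894. The most frequent combination, at 744 sites or 60.5%, was a region in ctrl. replicate 1 and in CORT replicate 2 with none in the other library of either group. Ctrl. replicate 2, the shortest list, thus lacked a region at 1213 of the 1229 sites. Leaving it out, so that ctrl. replicate 1 alone spoke for ctrl., left 241 cal. res.-only sites, and leaving out CORT replicate 1 left 338. With a single cal. res. library to fulfil the rule the number rose, to 2891 without cal. res. replicate 1 and 3926 without replicate 2. By their names in the labels, ctrl. replicate 2 and both cal. res. libraries belong to one naming style and ctrl. replicate 1 and both CORT libraries to another. The labels do not say what the style stands for, and between cal. res. and CORT it cannot be told apart from the group.

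**Figure D1:**
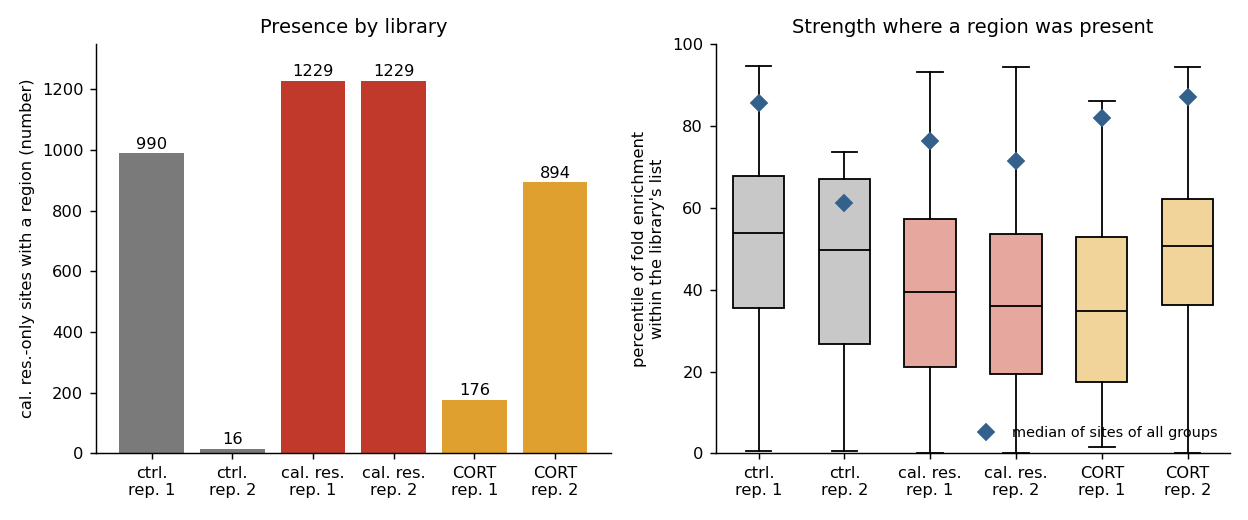
Left, number of the 1229 cal. res.-only sites with a GR region in each of the 6 libraries (bars), from 16 in ctrl. replicate 2 to 1229 in each cal. res. library. Right, percentile of their fold enrichment within each library's own list where a region was present (box, quartiles; line, median; whiskers, range without outlying points), with the median of the sites of all groups as diamonds; the cal. res. medians of 39.3 and 36.0 lie below those diamonds.

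In the cal. res. lists the signal was mostly in the lower part. Fold enrichment, the signal over the local background given by the peak caller, had a median of 5.03 (quartiles 4.14 and 6.31) in cal. res. replicate 1 and 4.34 (3.68 and 5.29) in replicate 2. As percentiles within each list these medians were 39.3 and 36.0, against 54.9 and 49.5 for the cal. res. and CORT sites and 76.3 and 71.5 for the sites of all groups. In the other libraries the median percentile, where a region was present, was 53.8 in ctrl. replicate 1, 49.7 in ctrl. replicate 2, 34.9 in CORT replicate 1 and 50.6 in CORT replicate 2, so that it lay near the middle of the list in all of these but CORT replicate 1. The mean of both cal. res. percentiles was under 50 at 71.9% of the cal. res.-only sites and at least 75 at 46 of them. The sites were narrow, with a median width of 569 bp against 784.5 bp and 1139 bp in these classes. Width spans all merged regions of a site, and classes held by more groups merge regions of more libraries. The order of widths is therefore partly set by the rule. For the cal. res. and ctrl. sites the median of the mean cal. res. percentile was 40.5 and the median width 695 bp, nearer to the 36.2 and 569 bp of the cal. res.-only sites than were the cal. res. and CORT sites, at 50.8 and 784.5 bp. The summits of the cal. res. replicates lay a median of 39 bp apart and within 100 bp of each other at 994 sites (80.9%). Across the 1229 sites the percentiles of the cal. res. replicates had a Spearman correlation of 0.48, given as a description of sites from the same libraries.

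In the other groups the signal at these sites was not uniformly weaker. At the 990 sites with a region in ctrl. replicate 1, the mean cal. res. fold enrichment was the higher value at 283 and the median ratio of cal. res. to ctrl. was 0.816. At the 894 sites with a region in CORT replicate 2, cal. res. was higher at 369, with a median ratio of 0.932. Among the 1168 sites with a region in any other library, the lower cal. res. value exceeded every other value at 140 sites (12.0%), and the higher cal. res. value was below some other value at 774 (66.3%). These folds come from libraries of unequal list length and are not scaled to each other.

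At the edge of the rule, the members with the weakest second region had q-values of 0.0978, 0.0978 and 0.0970 in their weaker cal. res. library, beside Sowahb, Lrrn3 and Mapre2, where the lists were called at 0.1. Just outside it, the weaker region that gave the site to another group had q-values of 0.0980, 0.0965 and 0.0965, beside Cct8, Basp1 and Nr3c2.

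Of the 10 cal. res.-only sites with the highest mean cal. res. percentile 8 lay in introns, where 48.9% of all cal. res.-only sites lay. FOXO1 overlapped 7 of them. Strong sites of every class often did so. At a mean percentile above 75, FOXO1 overlapped 47.8% of cal. res.-only sites, 51.6% of cal. res. and CORT sites and 73.7% of sites of all groups. The highest-ranked site was in an intron of Slit3, a secreted guidance ligand, on chr11:35698824-35699299, with Pank3, a pantothenate kinase of coenzyme A synthesis, as the nearest coding start. Its fold enrichment was 15.4 and 15.4 in the cal. res. replicates, 4.81 in ctrl. replicate 2 and 8.57 in CORT replicate 2, with no region in ctrl. replicate 1 or CORT replicate 1. Here both cal. res. values stood above every other value. Since the ranking used the cal. res. values, this is partly set by the choice, here and at other sites named for their strength.

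The next was in an intron of Itih1, which encodes a heavy chain of a plasma protease inhibitor that the liver secretes. Its fold enrichment was 17.1 and 10.8 in the cal. res. replicates, 7.76 in ctrl. replicate 1 and 13.4 in CORT replicate 2, so the groups overlapped. The site in an intron of Sec31a, a coat protein of vesicles leaving the endoplasmic reticulum, gave 15.7 and 10.7 in cal. res., 13.3 in ctrl. replicate 1 and 20.1 in CORT replicate 2, the highest value being that of CORT. An intronic site of Cblb, a ubiquitin ligase, gave 11.9 and 14.4 in cal. res. against 6.07 in ctrl. replicate 1 and 9.995 in CORT replicate 2.

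A site within Rgs8, a regulator of G protein signalling, lay at the start of the transcript Gm29529 and carried the highest FOXO1 fold enrichment of the 10, at 13.0. Its GR fold enrichment was 12.9 and 11.9 in cal. res., 6.61 in ctrl. replicate 1 and 8.004 in CORT replicate 2. The intronic site of Hpgd, the enzyme that inactivates prostaglandins, gave 10.8 and 10.7 in cal. res., 5.45 in ctrl. replicate 1 and 6.07 in CORT replicate 2. At both sites the cal. res. values were above the others. The remaining 4 lay in introns of Plcg2, Gpatch1 and Cttnbp2nl and between genes 155 kb upstream of Rreb1, with mean cal. res. percentiles from 85.2 to 88.4. The Cttnbp2nl site had 10.5 and 10.7 in cal. res., no region in ctrl. and 4.998 in CORT replicate 2.

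The strict sites were weaker and, being merged from cal. res. regions alone, narrower. Their median fold enrichment was 4.49 and 4.01 in cal. res. replicates 1 and 2, their median width was 359 bp, and at 21 of the 61 the weaker cal. res. region had a q-value above 0.01. The highest was in an intron of Fry, which encodes a microtubule-associated protein, with 8.74 and 6.56 in the cal. res. replicates and Zar1l as the nearest coding start. Next came sites between genes, 394 kb upstream of Mmadhc, a gene of cobalamin metabolism (9.45 and 6.01), and 25.8 kb from the start of Colca2 (7.70 and 6.68). A strict site 0.758 kb upstream of Lrrc61 (9.58 and 4.95) overlapped FOXO1, whose fold enrichment there was 10.1. Others of the 10 highest lay in an intron of Cda, the cytidine deaminase, with the start of the mitophagy kinase gene Pink1 nearest, in a coding exon of Lepr, the leptin receptor, and between genes nearest to Caprin1, Sipa1l2, Adgrl2 and Chic2, the last of which overlapped FOXO1 at 11.2-fold.

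The genomic sequence around the summit is shown for the 4 highest strict sites and for 3 of the 5 highest sites with FOXO1, since they show how far the letters of a GR or forkhead element go with the strongest signals. Each run is the 201 bp centred on the summit of the higher-ranked cal. res. region, plus strand, from the RefSeq sequence of GRCm38.p6, the build that mm10 corresponds to, and windows touching annotated exons were passed over. Capitals mark matches to any of the 10 motifs searched on both strands. The strict windows are chr5:150468515-150468715 in Fry, chr2:50690224-50690424 upstream of Mmadhc, chr9:51252639-51252839 near Colca2 and chr6:48553903-48554103 at the Lrrc61 promoter.
Fry: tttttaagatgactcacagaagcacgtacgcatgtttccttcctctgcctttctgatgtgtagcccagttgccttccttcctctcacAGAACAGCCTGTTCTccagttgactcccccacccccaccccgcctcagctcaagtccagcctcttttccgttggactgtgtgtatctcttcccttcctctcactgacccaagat
Mmadhc: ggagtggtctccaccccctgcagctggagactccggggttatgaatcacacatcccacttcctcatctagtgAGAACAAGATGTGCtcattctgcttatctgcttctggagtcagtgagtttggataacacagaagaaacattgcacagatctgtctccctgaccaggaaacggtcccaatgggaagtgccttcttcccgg
Colca2: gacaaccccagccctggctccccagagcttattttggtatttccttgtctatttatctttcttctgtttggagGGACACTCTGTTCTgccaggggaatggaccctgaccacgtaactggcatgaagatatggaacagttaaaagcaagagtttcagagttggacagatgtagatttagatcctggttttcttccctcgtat
Lrrc61: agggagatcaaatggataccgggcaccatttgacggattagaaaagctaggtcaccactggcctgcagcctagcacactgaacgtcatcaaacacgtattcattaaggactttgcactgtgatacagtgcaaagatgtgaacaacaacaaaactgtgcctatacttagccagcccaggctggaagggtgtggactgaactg
The FOXO1 windows are chr5:100369916-100370116 in Sec31a, chr16:52094725-52094925 in Cblb and chr8:117593966-117594166 in Plcg2.
Sec31a: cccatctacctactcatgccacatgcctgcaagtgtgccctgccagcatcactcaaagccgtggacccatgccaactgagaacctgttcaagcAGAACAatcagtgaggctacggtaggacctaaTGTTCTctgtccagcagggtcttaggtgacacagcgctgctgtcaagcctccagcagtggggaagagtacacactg
Cblb: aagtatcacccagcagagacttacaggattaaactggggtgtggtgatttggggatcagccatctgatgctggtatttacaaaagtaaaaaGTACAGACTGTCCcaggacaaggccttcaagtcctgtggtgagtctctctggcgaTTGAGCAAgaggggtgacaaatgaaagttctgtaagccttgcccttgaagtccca
Plcg2: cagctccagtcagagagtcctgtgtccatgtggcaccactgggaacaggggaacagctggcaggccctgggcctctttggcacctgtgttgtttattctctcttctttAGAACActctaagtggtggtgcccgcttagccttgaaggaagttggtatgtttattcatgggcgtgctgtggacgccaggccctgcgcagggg

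The GRE was searched as GAACANNNTGTTC and, with 1 further position free on each side of the gap, as the looser GNACANNNTGTNC, where N is any base. The Fry window held a full GRE, its centre 6 bp from the summit. The Mmadhc, Colca2 and Cblb windows held the looser form at 21, 21 and 3 bp, and the Sec31a and Plcg2 windows only the GR half-site AGAACA. None of the 7 windows held the exact forkhead letters TGTTTAC. Forms differing in 1 letter were not searched, and the Plcg2 window, for example, holds TGTTTAT and the Cblb window TATTTAC.

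Over the strict sites the looser GRE was more frequent than over the other cal. res.-only sites. It was found in 6 of 61 strict windows (9.84%, exact interval 3.70 to 20.2%), each within 25 bp of the summit, and in 33 of the other 1168. The difference was 7.01 percentage points (Newcombe interval 1.64 to 17.1). The letters TGTTTAC, the half-site AGAACA and FOXO1 overlap were compared in the same way. They differed by 4.81, 4.05 and -3.57 points, each with an interval including 0. Over all 1229 cal. res.-only windows the share of the looser GRE was 3.17% (2.266 to 4.31). It was 2.58% over cal. res. and CORT sites, 4.81% over sites of all groups and 1.95% over all merged sites. Within bands of the mean cal. res. percentile (0 to 25, 25 to 50, 50 to 75, 75 to 100) the order differed. Cal. res.-only windows had 2.02, 2.42, 4.35 and 13.0%, the last from 46 windows. Cal. res. and CORT sites had 0.669, 1.95, 2.14 and 7.18%, and sites of all groups 0.729, 0.392, 1.87 and 8.93%. In each band the cal. res.-only share was the highest, with matches in 7, 13, 13 and 6 windows. Its exact interval overlapped that of the cal. res. and CORT sites in every band. It overlapped that of the sites of all groups in every band but 25 to 50. The full GRE, each match of which is also a looser one, occurred in 9 of the 1229 windows. The half-site AGAACA, whose matches overlap many of the GRE matches, stood at 22.4% against 20.8, 21.2 and 18.6%.

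The FOX letters TGTTTAC occurred in 105 of the 1229 windows (8.54%, 7.04 to 10.2), against 7.20% of cal. res. and CORT sites, 6.24% of sites of all groups and 5.26% of all merged sites. The share was 2.31 points above that of the sites of all groups (0.768 to 4.07), whereas the difference from the cal. res. and CORT sites had an interval from -0.289 to 3.18 points. From the lowest to the top band of the mean cal. res. percentile it was 7.78, 10.1, 7.36 and 4.35% in cal. res.-only windows. Cal. res. and CORT sites had 4.95, 6.30, 8.52 and 8.36%, and sites of all groups 2.37, 3.20, 5.84 and 8.27%. Against the cal. res. and CORT sites the higher share was thus absent from 50 upward. Against the sites of all groups it was absent in the top band, where 2 of 46 cal. res.-only windows held the letters. The STAT letters TTCNNNGAA were less frequent than in either of these classes. They were present in 4.15% of cal. res.-only windows, with a difference of -2.58 points from the cal. res. and CORT sites (-3.82 to -1.14) and of -5.10 points from the sites of all groups (-6.28 to -3.70). Over all merged sites the share was 8.10%.

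The C/EBP letters TTGCNNAA stood at 18.6%, below the 22.1% of the cal. res. and CORT sites and close to the 18.5% of the sites of all groups. HNF4 (CAAAGTCCA) was found in 2.52%, the E-box CACGTG in 5.13%, ETS (CCGGAAGT) in 0.570%, and DR1, AGGTCANAGGTCA, in 1 window. For HNF4, the E-box and DR1 the interval of the difference from each of both other classes included 0. Over all merged sites their shares were 1.51, 4.82 and 0.113%, with 1.25% for ETS and 15.3% for C/EBP. Base composition moved with the classes, with a median GC content of 47.8% in cal. res.-only windows, 48.8% in cal. res. and CORT sites and 52.2% in sites of all groups, and its part in these shares was not tested.

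**Figure D2:**
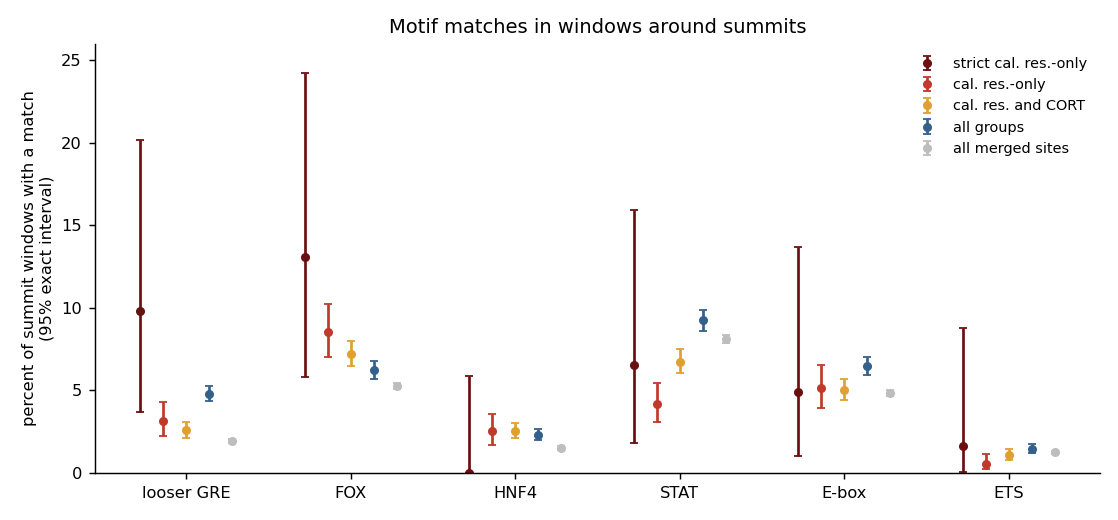
Percent of 201-bp summit windows with a match to 6 of the motifs (points, with exact 95% intervals) for strict cal. res.-only, cal. res.-only, cal. res. and CORT, all-group and all merged sites. The strict sites had the highest share of the looser GRE (9.84%), and the cal. res.-only sites the lowest share of STAT letters (4.15%) among the larger classes.

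FOXO1 regions overlapped 223 of the 1229 cal. res.-only sites, or 18.1% (16.0 to 20.4), against 13.9% over all merged sites. The difference was -9.89 percentage points from the cal. res. and CORT sites (-12.3 to -7.31) and -32.5 points from the sites of all groups (-34.9 to -30.04). From the cal. res. and ctrl. sites, at 21.6%, it was -3.41 points with an interval that included 0 (-8.56 to 1.24). From the CORT-only sites, held by CORT and by neither other group, it was 11.7 points (9.58 to 14.0). These overlapped FOXO1, which was mapped in cal. res. livers alone, at 6.44%. The share rose with GR strength in the cal. res.-only, cal. res. and CORT and all-group sites. It was therefore also read within bands of the mean cal. res. percentile. Up to a percentile of 25 it was 12.4% in cal. res.-only sites, 12.9% in cal. res. and CORT sites and 12.7% in sites of all groups. In that band the difference from the sites of all groups was -0.312 points (-4.63 to 4.32). From 25 to 50 it was 16.4, 18.4 and 21.4%, and from 50 to 75 it was 23.4, 33.9 and 41.2%, where cal. res.-only sites differed from the cal. res. and CORT sites by -10.4 points (-15.4 to -4.87). In the top band, with 46 cal. res.-only sites, 47.8% (32.9 to 63.1) overlapped FOXO1, against 51.6% and 73.7%. In every other band the interval of the difference from the cal. res. and CORT sites included 0. The difference was -0.459 points (-4.47 to 4.01) up to 25, -2.05 (-5.58 to 1.79) from 25 to 50 and -3.79 (-18.0 to 10.7) in the top band. Without ctrl. replicate 2 the difference from the cal. res. and CORT sites was -1.97 points with an interval including 0. The share itself was 29.3% with regions of a q-value of at most 1e-05, 31.5% when every list was cut to the length of the shortest and 7.97% with the stronger 50% of FOXO1 regions.

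**Figure D3:**
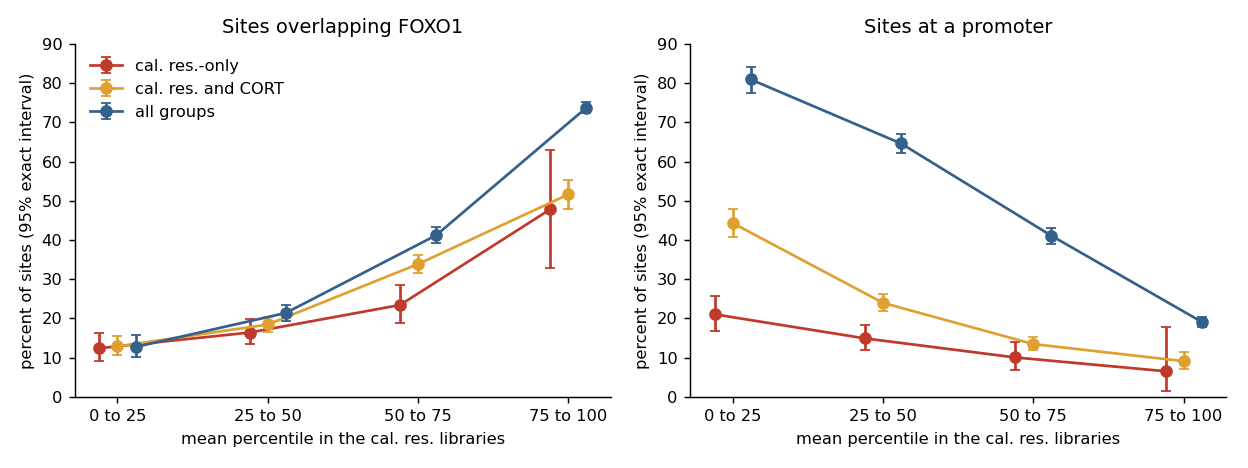
Percent of sites overlapping FOXO1 (left) and with a centre at a promoter (right) by band of the mean cal. res. percentile, for cal. res.-only, cal. res. and CORT and all-group sites (points, with exact 95% intervals). FOXO1 shares lie between 12.4 and 12.9% in the lowest band and part as strength rises. Promoter shares fall with strength in each class and are lowest in cal. res.-only sites. From 50 upward their intervals overlap those of the cal. res. and CORT sites.

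The median FOXO1 fold enrichment was 5.53 (quartiles 4.70 and 6.73) at the 223 sites, 5.59 at the 1316 cal. res. and CORT sites with FOXO1 and 6.40 at the 4104 such sites of all groups. The forkhead letters were more frequent at these sites. TGTTTAC was present in 46 of the 223 windows with FOXO1 (20.6%) and in 59 of the 1006 without (5.86%), a difference of 14.8 points (9.70 to 20.7). Among sites with FOXO1 the share in cal. res.-only windows was 9.95 points above that in sites of all groups (5.06 to 15.8), whose value was 10.7%. Against the cal. res. and CORT sites with FOXO1, at 16.1%, the interval ran from -0.707 to 10.6 points. FOXO1 overlap was counted over the whole site, but the letters only in the 201-bp window. As a class the sites of all groups were wider (median 1139 against 569 bp), and the part of width in these differences was not tested. Of the 223 sites, 116 were intronic, 73 intergenic and 27 at promoters.

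The cal. res.-only sites lay mostly away from promoters. A promoter, counted when the site centre was within 1 kb of any annotated transcript start, held 186 of them or 15.1% (13.2 to 17.3), against 25.04% of all merged sites, 21.2% of cal. res. and CORT sites and 38.0% of sites of all groups. Introns held 601 (48.9%), intergenic sequence 404 (32.9%), coding exons 11 and other exons 27. The promoter share differed by -6.04 points from that of the cal. res. and CORT sites (-8.28 to -3.64) and by -22.9 points from that of the sites of all groups (-25.1 to -20.5). Of the cal. res. and ctrl. sites 44.9% were at promoters, and the difference from these was -29.8 points (-35.5 to -24.1). Within bands of strength the difference from the cal. res. and CORT sites was -23.3 points up to a percentile of 25, -9.06 points from 25 to 50, and -3.42 points from 50 to 75, where the interval (-6.79 to 0.800) included 0. In the top band it was -2.57 points, again with an interval including 0 (-7.47 to 8.58).

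The promoter difference from the cal. res. and CORT sites depended on site width and on 2 libraries. Among sites of at most 1000 bp it was -1.51 points, without ctrl. replicate 2 it was -3.62 points (-9.83 to 2.63) and for the strict sites -8.06 points, each with an interval including 0. Without CORT replicate 1 it turned to 9.52 points. The 149 cal. res.-only sites that ctrl. replicate 1 and CORT replicate 1 shared included 64 promoter sites (43.0%), whereas the 744 with a region in ctrl. replicate 1 and CORT replicate 2 included 78 (10.5%).

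**Figure D4:**
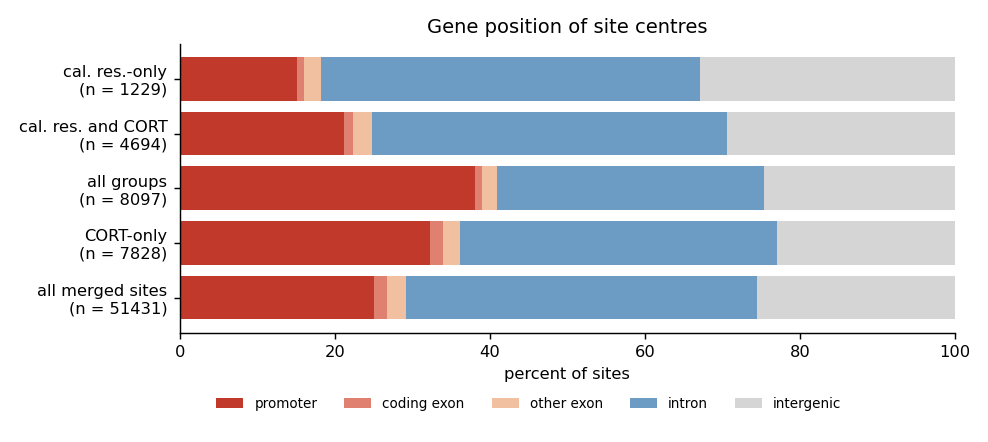
Gene position of site centres as percent of sites (stacked bars: promoter, coding exon, other exon, intron, intergenic) for cal. res.-only (n = 1229), cal. res. and CORT (n = 4694), all-group (n = 8097), CORT-only (n = 7828) and all merged sites (n = 51431). Promoters take 15.1% of the cal. res.-only bar and 38.0% of the all-group bar.

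Of the 5 highest promoter sites, 3 lay at starts of noncoding transcripts, namely that within Rgs8, n-R5s205 within Stard9 and Gm33524 within Pebp4. The others were at coding genes. The site at the start of Tbl1xr1, a subunit of nuclear receptor corepressor complexes, had 9.75 and 6.89 in cal. res., 4.81 in ctrl. replicate 1 and 7.52 in CORT replicate 2. At the start of Nr4a1, an immediate early nuclear receptor, the values were 12.2 and 6.01 in cal. res., 5.14 in ctrl. replicate 1 and 6.64 in CORT replicate 1. For both genes the lower cal. res. value was below a CORT value.

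Counted to the nearest protein-coding start, cal. res.-only sites lay at a median of 18.7 kb (quartiles 5.25 and 56.8), against 15.1 kb for cal. res. and CORT sites and 7.07 kb for sites of all groups. Over 50 kb from such a start lay 335 of them (27.3%), 10.1 points more than among sites of all groups (7.55 to 12.8). Of all merged sites 20.9% lay that far.

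The median distance from a cal. res.-only site to the nearest site of all groups, centre to centre, was 31.8 kb (26.9 to 36.6), with quartiles of 6.56 and 121 kb. It was 23.9 kb (22.5 to 25.8) for cal. res. and CORT sites, 32.5 kb for CORT-only sites and 16.5 kb from one site of all groups to the next. The difference from the cal. res. and CORT sites lay in the far part of the range. Within 10 kb of a site of all groups were 30.7% against 32.9%, a difference whose interval (-5.08 to 0.734 points) included 0, whereas within 100 kb were 72.3% against 77.8%, a difference of -5.44 points (-8.27 to -2.73). Over 500 kb away lay 92 cal. res.-only sites (7.49%), 2.37 points more than among cal. res. and CORT sites (0.874 to 4.09). At the near end, 107 cal. res.-only sites (8.71%) were within 2 kb of a site of all groups, 2.85 points more than the 5.86% of the cal. res. and CORT sites (1.23 to 4.67). Over all merged sites, 6.36, 29.7 and 74.0% lay within 2, 10 and 100 kb and 6.46% over 500 kb away. The cal. res.-only intervals included these values for all but the share within 2 kb (7.19 to 10.4). The cal. res. and ctrl. sites lay farther off, with 22.5% within 10 kb, which the cal. res.-only share exceeded by 8.22 points (2.82 to 13.1). The median moved to 14.6 kb without ctrl. replicate 2, to 61.3 kb at a q-value of at most 1e-05 and to 91.2 kb among sites of at most 1000 bp, each of which also changed the number of sites of all groups.

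**Figure D5:**
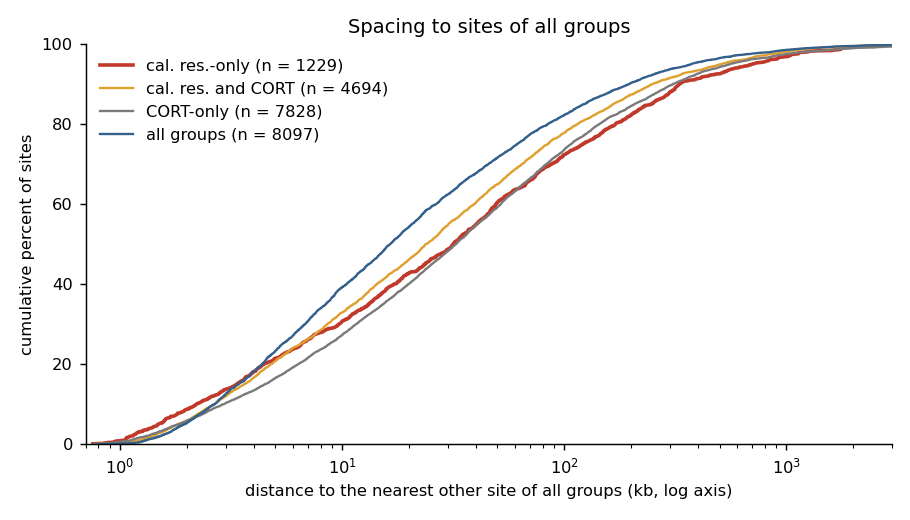
Cumulative percent of sites by distance to the nearest other site of all groups (kb, log axis) for cal. res.-only, cal. res. and CORT, CORT-only and all-group sites. The cal. res.-only curve crosses 50% at 31.8 kb, right of the cal. res. and CORT curve at 23.9 kb and the all-group curve at 16.5 kb.

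Cal. res.-only sites at promoters were farther from a site of all groups, at a median of 50.1 kb (35.4 to 78.2), than those elsewhere, at 29.1 kb (23.8 to 33.6). Sites with and without FOXO1 did not differ beyond their intervals, at 31.2 kb (18.4 to 47.1) and 31.9 kb (26.3 to 36.8). Among themselves the sites were spread out, with 300.6 kb as the median distance to the next cal. res.-only site and 96 sites within 10 kb of another.

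The sites had 1040 protein-coding genes as nearest gene, 4.74% of all such genes. Of these, 612 (58.8%) were also the nearest gene of a site of all groups, against 54.0% of the genes nearest to a cal. res. and CORT site and 35.4% of those nearest to any merged site, and 900 had a single cal. res.-only site. Nearest means the closest start and does not show that a site acts on the gene. By sites, 61.9% had such a shared gene, against 63.0% of cal. res. and CORT sites (difference -1.10 points, -4.17 to 1.92) and 62.1% of all merged sites.

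There were 37 genes nearest to 3 or more cal. res.-only sites, 29 of which also had a site of all groups and 19 of which had a cal. res.-only site with FOXO1. Over all 1040 nearest genes 58.8% had a site of all groups, and 18.1% of all cal. res.-only sites overlapped FOXO1. Genes with several sites have more occasions for either, so both counts are descriptions only. Irs2, the insulin receptor substrate that carries much of the insulin signal in liver, had the most cal. res.-only sites, 5 of its 35 merged sites, beside 10 sites of all groups. They lay 4.77 to 141 kb upstream of its start. The strongest, on chr8:11098283-11098948, had 7.27 and 7.11 in the cal. res. replicates, 6.70 in ctrl. replicate 1 and 3.72 in CORT replicate 1. The site on chr8:11055528-11056097 overlapped FOXO1 and had 8.40 and 6.00 in cal. res., 4.01 in ctrl. replicate 1 and 5.49 in CORT replicate 1. At both sites the cal. res. values were above the others. The site on chr8:11148824-11149504, also with FOXO1, had 7.35 and 3.68 in cal. res. and 4.43 in CORT replicate 1, and that on chr8:11065906-11066312 had 6.26 and 4.01 in cal. res., 6.42 in ctrl. replicate 1 and 5.55 in CORT replicate 2. The nearest, on chr8:11012851-11013601, had 4.02 and 4.01 in cal. res., 3.75 in ctrl. replicate 1 and 3.32 in CORT replicate 1. Both cal. res. values were thus the higher ones at 3 of the 5 Irs2 sites, and the groups overlapped at the other two.

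Genes with 4 cal. res.-only sites were Agtpbp1, Cnksr3, Dusp6, Fbxo21, Lacc1, Lpp, Pank3, Rreb1, Slc25a42 and Tcf7l2. Dusp6, a phosphatase that acts on ERK, had 2 of its 4 on FOXO1 and its strongest, with 10.5 and 6.68 in cal. res., 7.93 in ctrl. replicate 1 and 11.1 in CORT replicate 2, lay 60.7 kb upstream. Slc25a42, a mitochondrial carrier of coenzyme A, had 1 strict site with FOXO1, 6.95 kb upstream of its start, at 4.90 and 3.34. Cnksr3, a scaffold protein, had no site of all groups, and its 4 sites lay 541 to 721 kb from the nearest one.

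The 3 sites of Cfap20, a ciliary protein gene, all overlapped FOXO1, and the strongest had 8.46 and 9.03 in cal. res., 9.18 in ctrl. replicate 1 and 6.00 in CORT replicate 2. Gpam, which encodes the mitochondrial acyltransferase of triglyceride synthesis, had 3 intronic sites within 7.37 kb of a start. The strongest of them had 7.82 and 6.15 in cal. res., 4.53 in ctrl. replicate 2 and 4.86 in CORT replicate 2, which were lower. Klf4, a Krüppel-like transcription factor gene with no site of all groups, had a promoter site (5.44 and 4.88 in cal. res., 6.15 in ctrl. replicate 1, 3.31 in CORT replicate 1) and sites 406 and 427 kb upstream. The others with 3 were Adgrl2, Caprin1, Daam1, Ephx1, Fnip2, Gli2, Ier3, Map7, Mapre2, Mn1, Nsmce3, Pik3r1, Plcl2, Rassf3, Sgms1, Slc12a7, Slc25a13, Sox4, Sulf2, Svil, Tbl1xr1, Trib2 and Zfp608.

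Among 11 lists of liver and glucocorticoid genes, the share of genes nearest to a cal. res.-only site ran from 0 of 36 ribosomal protein genes to 7 of 19 hepatocyte transcription factor genes. The lists hold genes with many GR sites, and of genes nearest to a site of all groups 13.1% also had a cal. res.-only site. Counted by sites, cal. res.-only sites made up 5.20% (2.41 to 9.65) of the 173 merged sites nearest to fatty acid oxidation and ketogenesis genes and 3.28% (1.84 to 5.34) of the 458 nearest to insulin and growth hormone genes, where the share over all sites was 2.39%. Over the 11 lists the interval lay wholly above that share only for the fatty acid list, by a small margin, and wholly below it only for the amino acid breakdown list, at 1 of 291 (0.344%, 0.00870 to 1.90).

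In the insulin and growth hormone list 8 of 29 genes had such a site. Besides Irs2 and Pik3r1, a regulatory subunit of the insulin-responsive lipid kinase, these were Insr, Foxo1, Igf1, Igfbp2, Ghr and Trib1. The Igf1 site, 141 kb upstream of the growth factor's start, was strict, with 3.85 and 4.01 in the cal. res. replicates. Of the Foxo1 sites the stronger, 211 kb downstream of the start, had 8.88 and 5.91 in cal. res., 6.70 in ctrl. replicate 1 and 5.04 in CORT replicate 2.

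In the fatty acid list 6 of 25 genes had a site, namely Acadm, Ehhadh, Acaa2, Bdh1, Acot1 and Pdk4. The stronger of the Acadm sites, 3.80 kb upstream of this medium-chain dehydrogenase gene, had 8.11 and 8.65 in cal. res., 5.91 in ctrl. replicate 1 and 6.50 in CORT replicate 2, so that both cal. res. values were higher. The Ehhadh site, in an intron 2.53 kb from the start of this peroxisomal enzyme gene, was strict but weak, at 3.66 and 2.79, and lay 1029 kb from the nearest site of all groups. Pdk4, the kinase that restrains pyruvate oxidation in fasting, had 2 sites between genes. One had 4.63 and 6.36 in cal. res. and 3.36 in CORT replicate 2, and the other 4.44 and 4.72 in cal. res. but 5.55 in ctrl. replicate 1.

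Of 20 glucocorticoid response genes 4 had a site, Nr3c1 itself, Tsc22d3, Ddit4 and Pik3r1. The one near Tsc22d3, which encodes the glucocorticoid-induced leucine zipper, was the strongest of any list, with 11.3 and 9.36 in cal. res., 5.77 in ctrl. replicate 1 and 6.78 in CORT replicate 2, and it lay 9.91 kb from a site of all groups. In the lipid synthesis list 5 of 23 genes had one (Srebf1, Scd1, Elovl6, Gpam, Hmgcs1). The stronger Scd1 site, near the stearoyl-CoA desaturase gene, overlapped FOXO1 and had 8.85 and 8.78 in cal. res., but 10.2 in ctrl. replicate 1 and 12.7 in CORT replicate 2.

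Among hepatocyte transcription factors the genes were Foxa2, Cebpa, Cebpd, Prox1, Nr2f2, Nfia and Nfib, though cal. res.-only sites were 1.85% of the list's 433 merged sites. Of 22 clock genes in the annotation 4 had a site (Per2, Rora, Bhlhe40, Csnk1d), of 18 gluconeogenesis genes 2 (Ppargc1a, Aqp9), of 30 autophagy and mTOR genes 2 (Gabarapl1, Ddit4), of 20 bile acid, sterol and xenobiotic genes 2 (Nr1h4, Nr5a2), and of 27 amino acid genes 1 (Oat). Ppargc1a, which encodes a coactivator of gluconeogenesis, had 2 sites. The one upstream had 5.95 and 5.41 in cal. res., 5.61 in ctrl. replicate 1 and 4.51 in CORT replicate 2, and the one downstream, with FOXO1, had 4.03 and 4.24 in cal. res., 4.06 in ctrl. replicate 1 and 6.16 in CORT replicate 1. The groups overlapped at both.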

How the data were processed

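The authors aligned paired-end reads to mm10 with BWA, processed them with Picard and SAMtools, called GR peaks per library with MACS2 at a q-value of 0.1 and removed blacklisted regions with bedtools. An input control is not given in the sources used here. The FOXO1 list was called by the authors on 2 merged cal. res. libraries at a stricter threshold. The deposited GR lists give, per peak, fold enrichment (a ratio) and −log10 of the p-value and of the q-value, and the deposited FOXO1 list gives fold enrichment and −log10 q. Read depth is not in the lists and was not analysed, so a region that is missing may lie below detection.

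From these, rows with the same coordinates were reduced to the one with the highest fold enrichment, overlaps of at least 1 bp were merged into sites, and percentiles of fold enrichment were taken within each list. A site's strength was the mean of its cal. res. percentiles. Genes and transcript starts came from the GENCODE M21 basic annotation, and sequence from GRCm38.p6, whose chromosome lengths hold every site on the chromosomes compared. Motif windows used the summit of the higher-ranked cal. res. region, or of any library for sites cal. res. did not hold; 3 mitochondrial sites had none. Shares carry exact (Clopper-Pearson) intervals, differences of shares Newcombe intervals and medians binomial intervals, all at 95%, not adjusted for the number of comparisons. No test over samples was run, since sites are not replicates and the class values exist once per set of 6 libraries. The code passed 8 of 8 checks on simulated lists. Python 3.11.15, pandas 2.3.3, SciPy 1.17.1 and pysam 0.24.0 were used.

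The sites and gene lists were chosen with earlier results of these data known. Named were the 10 highest-ranked cal. res.-only sites, the 10 highest strict ones, the 5 highest with FOXO1 and the 5 highest at a promoter, genes nearest to 3 or more sites, and genes of 11 lists that were nearest to a site. Of the listed genes, 1 symbol, Bmal1, was not in the annotation under that name. One gene and 1 sequence are not reported here. Alternatives were stricter q-values, equal list lengths, other overlap, width, promoter, FOXO1 and distance definitions, and leaving out each library.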

Additional observations from a re-analysis of the deposited data

How the results depend on the processing

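No paired analysis was possible because no result came from a test over samples: each site class is set by the 6 libraries together, its shares exist once, the values per library were used by the rule that chose the sites, and the replicate numbers only name libraries. Cal. res.-only sites numbered 1928 when every list was cut to the length of the shortest and 61 with no region in any other-group library; leaving out each library gave 241 (without ctrl. replicate 2) to 3926 (without cal. res. replicate 2), while the lists without cal. res. replicate 1 gave 2891 and those lacking CORT replicate 1 gave 338. The promoter share was 13.1% for strict sites and 26.5% within 3 kb, and 11.1 to 29.0% with a library left out, the extremes coming without CORT replicates 2 and 1. The FOXO1 share was 20.7% at q of at most 0.01, 29.3% at 1e-05, 31.5% with equal list lengths, 14.8% for strict sites and 7.97% for the stronger 50% of FOXO1 regions, and 10.9 to 17.6% with a library left out, lowest without either cal. res. library. The median distance to a site of all groups was 61.3 kb at q of at most 1e-05, 44.0 kb with equal list lengths, 91.2 kb for sites of at most 1000 bp, 44.9 kb for strict sites, and 14.6 to 46.1 kb with a library left out.

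The promoter difference from the cal. res. and CORT sites was -1.51 points for sites of at most 1000 bp, -8.06 for strict sites and -3.62 without ctrl. replicate 2, with intervals including 0, and ran from -10.9 to 9.52 points with a library left out; without CORT replicate 1 it reversed to 9.52. The FOXO1 difference ran from -14.0 to -1.97 points with a library left out, and over all alternatives its interval included 0 only without ctrl. replicate 2. None of these alternatives compared sites of like strength. Within bands of the mean cal. res. percentile its interval excluded 0 only from 50 to 75. The causes were not tested. The FOXO1 difference kept its direction in all 14 alternatives, including overlap of FOXO1 with the 201-bp summit window, which was chosen after seeing the data (17.5% of sites, -9.33 points). List length limits what absence means, since the lists ran from 12458 to 39136 regions.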

Other observations

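The share of merged sites that were cal. res.-only varied between chromosomes. On chromosome 18 they were 56 of 1573 sites (3.56%, exact interval 2.70 to 4.60) and on chromosome 13 they were 73 of 2283 (3.20%, 2.51 to 4.00). On chromosome 11 they were 60 of 3686 (1.63%, 1.24 to 2.09), where the share over all sites was 2.39%. These 3 chromosomes were picked after the values of all were seen, and the intervals cover counting error only.

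The full GRE letters occurred in 3 of the 61 strict windows (4.92%, 1.03 to 13.7), in 0.630% of windows of sites of all groups and in 0.102% of windows of CORT-only sites, whose share over all merged sites was 0.272%. In cal. res.-only windows a looser GRE lay at a median of 19 bp from the summit, and within 25 bp in 26 of 39. FOX letters lay at a median of 42 bp, within 25 bp in 36 of 105. In sites of all groups the medians were 18 and 44 bp.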
